A study of Mus musculus with 15 samples.

Results

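The signal transducer and activator of transcription (STAT) and interferon regulatory factor (IRF) genes described here are *Stat2*, *Stat3*, *Irf1*, *Irf2*, *Irf3*, *Irf7*, *Irf8* and *Irf9*, 8 of the 55487 genes in the deposited count table. They were selected by gene symbol, and each symbol matched 1 row. To ask how loss of the linear ubiquitin deubiquitinase OTULIN in the epidermis alters gene expression, skin was taken from 3-week-old C57BL/6 mice and sequenced from the polyadenylated end of each transcript, with 5 libraries per group. WT libraries came from *Otulin* fl/fl littermates without Cre, so these controls carry the floxed alleles too. OTULIN E-KO libraries came from *Otulin* fl/fl *K14-Cre* mice and were divided by the appearance of the tissue into non-lesional and lesional skin. The keratin 14 promoter directs Cre to keratinocytes, so that fibroblasts, blood vessels and immune cells in the same piece of skin keep *Otulin*. The labels do not say whether a lesional and a non-lesional library came from the same mouse, and the p-values below measure only the spread between these libraries.

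STAT proteins wait in the cytoplasm, are phosphorylated by Janus kinases (JAKs) at activated cytokine receptors and then bind DNA in the nucleus. Type I and type III interferons act through a complex that contains STAT2 and IRF9 and binds the interferon-stimulated response element (ISRE), whereas interleukin-6 family cytokines act through STAT3 dimers, which bind gamma-activated sites (GAS). IRF3 and IRF7 are switched on by sensors of foreign or misplaced nucleic acid and start interferon transcription, IRF1 activates and IRF2 mostly restrains overlapping targets, and IRF8 guides the development of macrophages and dendritic cells. Several of these factors are themselves interferon targets, so their mRNA can follow the activity of the pathway, while the phosphorylation that activates the proteins was not measured here.

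The libraries held 1962604 to 2567138 counts, and the totals of the groups overlapped (exact permutation tests, two-sided, p = 0.0714 to 0.254, where the design allows no p below 0.0079). Levels are given as CPM, the count of a gene relative to the size of its library, after scaling all 15 libraries together by the trimmed mean of M-values (TMM). The deleted gene does not check the labels in whole skin: *Otulin* CPM ranged from 12.2 to 28.2 in WT, 21.2 to 30.7 in non-lesional and 18.98 to 27.2 in lesional libraries. A count at the 3′ end also says nothing of an exon deleted elsewhere, and which exons are floxed is not given in the sources used here. Lesional libraries 2 and 11 stood apart from the other lesional libraries. *Krt6b*, a keratin of hyperplastic epidermis, was at 3531 CPM in lesional library 2 and 8733 CPM in lesional library 11, while lesional libraries 5, 8 and 14 had 1.20 to 4.85 CPM and WT libraries 1.26 to 17.1 CPM. Results involving lesional skin are therefore also given without these 2 libraries, a choice made after the data were seen.

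The members *Stat2*, *Irf9* and *Irf7* had higher mean levels in both kinds of OTULIN E-KO skin than in WT skin, and no member passed the test after adjustment over all genes. In edgeR's quasi-likelihood test with Benjamini-Hochberg adjustment, 0 of 13021 genes tested between non-lesional and WT skin had an adjusted p under 0.05, as did 0 of 12918 between lesional and WT skin and 0 of 12864 between lesional and non-lesional skin. Without adjustment, 411 genes (3.16%), 621 genes (4.81%) and 543 genes (4.22%) had a p under 0.05 in these comparisons, and DESeq2 called 1, 14 and 0 genes after adjustment, with no member among them. All 8 members passed the filter on low counts in each comparison. At an unadjusted p under 0.05, *Stat2*, *Irf7* and *Irf9* were higher in non-lesional than in WT skin, 3 of 8 members beside a background of 1.85% of genes tested. With all 15 libraries in 1 edgeR fit, only *Irf9* met that limit in this comparison, with unadjusted p of 0.0944 for *Stat2* and 0.075 for *Irf7*. The same 3 members were higher in lesional than in WT skin, beside a background of 3.24%. No member met that limit between lesional and non-lesional skin, where 2.89% of genes did in the higher direction. No member was lower at that limit, where 1.31%, 1.56% and 1.33% of genes were in the same order of comparisons. The comparisons with WT share the same 5 WT libraries and are therefore not independent of each other. Without lesional libraries 2 and 11, the members higher in lesional than in WT skin at that limit were *Stat2* and *Irf9*, 2 of 8 beside 1.42% of genes.

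**Figure D1:**
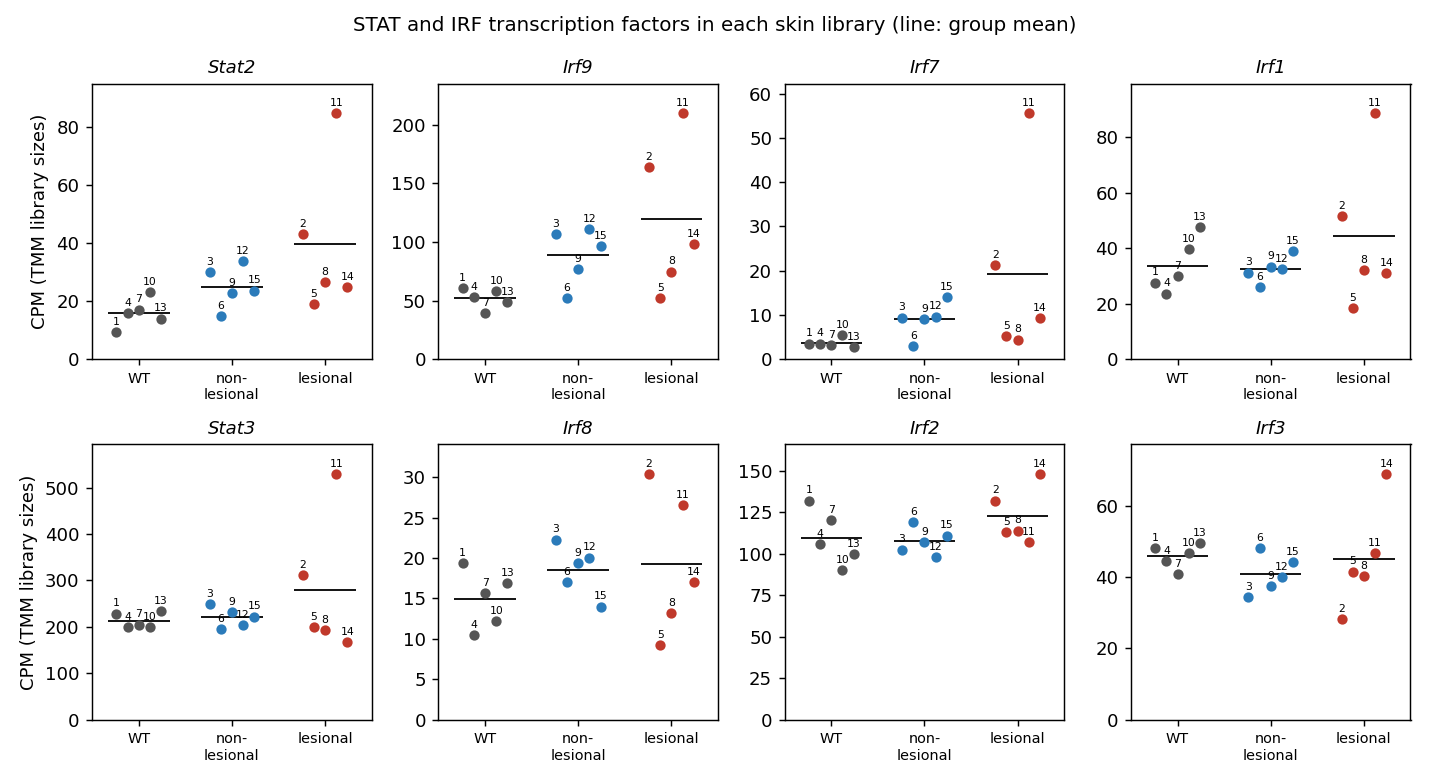
Level of each STAT and IRF gene, in CPM on TMM library sizes, in each of the 15 skin libraries (points, numbered by replicate, with a line at the mean of the 5 libraries of a group). Lesional library 11 was the highest of its group for 5 of the 8 genes, and non-lesional library 6 was the lowest of its group for the same 5, *Stat2*, *Stat3*, *Irf1*, *Irf7* and *Irf9*.

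Of the members that form the ISRE-binding complex, *Irf9* (ENSMUSG00000002325, chr14:55603571-55610030 of GRCm38, plus strand) encodes the subunit that reads the ISRE. In WT skin its levels were 60.6, 52.8, 38.95, 57.8 and 48.8 CPM for libraries 1, 4, 7, 10 and 13. In non-lesional skin they were 107, 52.3, 77.03, 111 and 96.5 CPM for libraries 3, 6, 9, 12 and 15, and 4 of these 5 values lay above every WT value while library 6 lay within the WT range. In lesional skin they were 164, 51.8, 74.7, 210 and 98.1 CPM for libraries 2, 5, 8, 11 and 14, and again 4 of 5 lay above every WT value, library 5 being the exception. Having at least 4 libraries above all WT libraries was met by 2.03% of genes tested for non-lesional skin and 2.76% for lesional skin. The fitted log2 fold change was 0.78 ± 0.18 (standard error, unadjusted p = 5.3e-04 by edgeR) between non-lesional and WT skin, the 5th smallest unadjusted p of 13021 genes, and 1.21 ± 0.33 (standard error, unadjusted p = 0.00340 by edgeR) between lesional and WT skin. Its adjusted p by edgeR was 0.9998 and 0.926. Leaving out non-lesional library 6 alone gave *Irf9* a log2 fold change of 0.92 with an adjusted p of 0.0266 in the same edgeR test, and testing genes without the filter on low counts gave an adjusted p of 5.0e-05. Library 6 had the lowest *Irf9* level of the non-lesional libraries. Of 18 alternative settings for non-lesional against WT skin, only these 2 called *Irf9*, and its adjusted p by DESeq2 was 0.406. Without lesional libraries 2 and 11 the log2 fold change between lesional and WT skin was 0.52 (unadjusted p = 0.0198 by edgeR). Lesional and non-lesional skin overlapped, with a log2 fold change of 0.43 ± 0.35 that became -0.24 without these 2 libraries. The exons of *Irf9* share 123 bases with *Rnf31*, which encodes the HOIP subunit of the linear ubiquitin ligase, on the same strand but far from the *Irf9* 3′ end. *Rnf31* held only 16 to 33 counts per library.

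*Stat2* (ENSMUSG00000040033, chr10:128270559-128292849, plus strand) encodes the subunit that brings the activation domain to the same complex. WT libraries had 9.32, 15.7, 17.01, 23.2 and 13.9 CPM, in the same library order as above. Non-lesional libraries had 29.8, 14.9, 22.7, 33.7 and 23.6 CPM, and 3 of the 5 exceeded every WT library. Lesional libraries had 43.1, 18.98, 26.4, 84.7 and 24.8 CPM, and 4 of the 5 did so. WT library 10 was the highest WT library, overlapping with non-lesional libraries 6 and 9 and with lesional library 5. The log2 fold change was 0.66 ± 0.24 (standard error, unadjusted p = 0.0121 by edgeR) for non-lesional and 1.32 ± 0.40 (standard error, unadjusted p = 0.00571 by edgeR) for lesional skin over WT skin, with adjusted p of 0.9998 and 0.926 by edgeR. It was 0.85 between lesional and WT skin without lesional library 11 and 0.57 (unadjusted p = 0.0478 by edgeR) without libraries 2 and 11. Between lesional and non-lesional skin it was 0.66 ± 0.38 (standard error, unadjusted p = 0.108 by edgeR), and -0.09 without libraries 2 and 11. *Stat2* shares no annotated exon with another gene.

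To see whether the sequence motif of this complex lies near the start of the members that form it or respond to it, 250 bases upstream of each RefSeq transcript start (GRCm38.p6) were searched on both strands for GAAA, any 2 bases and GAAA again, called an ISRE-type match here, and for TTCNNNGAA, called a GAS match. The letters of these motifs can overlap with each other. Windows were found for 8 of 8 members, 11 in all because *Irf1*, *Irf8* and *Irf9* have alternative starts. Over all 32851 such windows, 2.98% held the ISRE-type letters and 7.02% the GAS letters. The *Stat2* window (chr10:128270248-128270497, plus strand) held 1 ISRE-type match, in capitals below, from base -222 to base -213 counted back from the transcript start. The single *Irf7* window (chr7:141266425-141266674, minus strand) and both *Irf9* windows held neither set of letters, and the first *Irf9* window (chr14:55603735-55603984, plus strand) is shown with that of *Irf7* because these 2 genes differed most from WT skin beside *Stat2*. A match describes letters only, and its absence says only that these letters are not in this window.
Stat2: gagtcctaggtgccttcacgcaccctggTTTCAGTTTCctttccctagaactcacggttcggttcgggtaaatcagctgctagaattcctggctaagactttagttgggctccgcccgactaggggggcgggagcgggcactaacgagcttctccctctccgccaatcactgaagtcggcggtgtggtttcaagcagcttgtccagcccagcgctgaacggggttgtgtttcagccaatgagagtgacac
Irf7: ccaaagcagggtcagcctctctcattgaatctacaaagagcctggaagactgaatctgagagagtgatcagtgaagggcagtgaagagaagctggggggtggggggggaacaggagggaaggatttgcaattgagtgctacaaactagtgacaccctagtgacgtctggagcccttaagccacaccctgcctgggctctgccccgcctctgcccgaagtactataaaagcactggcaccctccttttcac
Irf9: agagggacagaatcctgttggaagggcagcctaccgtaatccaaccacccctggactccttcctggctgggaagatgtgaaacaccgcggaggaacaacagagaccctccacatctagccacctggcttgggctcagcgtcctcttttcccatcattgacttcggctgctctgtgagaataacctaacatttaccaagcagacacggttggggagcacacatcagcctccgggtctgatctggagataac

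*Irf7* (ENSMUSG00000025498, chr7:141262706-141266481, minus strand), the inducible factor that amplifies interferon production, had the largest fitted fold differences of the 8 members with all libraries included, and the smallest counts. WT libraries held 9, 8, 7, 13 and 7 counts, or 3.49, 3.49, 3.13, 5.48 and 2.63 CPM. Non-lesional libraries held 21, 7, 22, 24 and 32 counts, or 9.35, 2.97, 9.06, 9.62 and 13.98 CPM. Lesional libraries held 47, 10, 11, 111 and 19 counts, or 21.3, 5.13, 4.40, 55.7 and 9.22 CPM. Of the non-lesional libraries, 4 of 5 lay above every WT library and library 6 lay within the WT range, whereas in lesional skin libraries 2, 11 and 14 lay above every WT library and libraries 5 and 8 overlapped with it. The spread of the WT counts was no larger than counting error, with a variance of 0.788 times the Poisson value, against 51.3 times in lesional skin. The log2 fold change was 1.29 ± 0.36 (standard error, unadjusted p = 0.00182 by edgeR) for non-lesional and 2.37 ± 0.69 (standard error, unadjusted p = 0.00542 by edgeR) for lesional skin over WT skin, with adjusted p of 0.9998 and 0.926 by edgeR. *Irf7* reached 10 counts in only 1 WT library, against 4 non-lesional and 5 lesional libraries, so it passed the filter mainly through the groups in which it was higher. Without lesional library 11 the log2 fold change between lesional and WT skin was 1.45, and without libraries 2 and 11 it was 0.76 (unadjusted p = 0.0866 by edgeR). With quality weights in limma it was 1.11 (unadjusted p = 0.0551). Between lesional and non-lesional skin it was 1.07 ± 0.68 (standard error, unadjusted p = 0.143 by edgeR) with all libraries and -0.53 without those 2. The last 45 bases of *Irf7* overlap with the last bases of *Phrf1* on the opposite strand, which held 127 to 203 counts, and since no strand setting was stated for the counting, the share of *Irf7* counts that came from *Phrf1* was not tested.

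*Irf3* (ENSMUSG00000003184, chr7:44997648-45002848, plus strand) encodes the constitutively made partner of IRF7, which needs phosphorylation rather than new synthesis to act. Its CPM were 48.1, 44.5, 40.7, 46.8 and 49.6 in WT, 34.3, 48.02, 37.5, 40.1 and 44.1 in non-lesional and 28.1, 41.6, 40.4, 46.6 and 68.9 in lesional libraries. Of the OTULIN E-KO libraries, 3 non-lesional and 2 lesional ones lay below every WT library, and lesional library 14 lay above all of them. Fitted log2 fold changes of *Irf3* were -0.17 ± 0.13 (standard error, unadjusted p = 0.203 by edgeR) for non-lesional and -0.03 ± 0.20 (standard error, unadjusted p = 0.879 by edgeR) for lesional skin over WT skin. The sign of the latter changed when lesional library 2 was left out (0.10). On the opposite strand *Irf3* shares 88 bases with *Bcl2l12*, a gene with 7 to 21 counts.

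Within a library, the number of *Irf7* counts per *Irf3* count does not depend on library scaling. It was 0.0726, 0.0784, 0.0769, 0.117 and 0.0530 in WT libraries. In non-lesional skin it was 0.0619 in library 6 and 0.240 to 0.317 in the other 4. In lesional skin it was 0.758 in library 2 and 1.19 in library 11, and 0.109 to 0.134 in libraries 5, 8 and 14. The ratio of *Irf9* to *Irf3* counts ordered the libraries in a similar way, with 0.956 to 1.26 in WT, 1.09 in non-lesional library 6, 2.05 to 3.12 in the other non-lesional libraries, 5.84 and 4.51 in lesional libraries 2 and 11 and 1.25 to 1.85 in the other lesional libraries. These ratios are a description and were not tested. They also move with *Irf3*, the denominator, which was highest in lesional library 14 (68.9 CPM). By CPM that library overlapped with these non-lesional libraries, at 98.1 CPM of *Irf9* against 77.0 CPM in non-lesional library 9 and at 9.22 CPM of *Irf7* against 9.06 CPM.

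**Figure D2:**
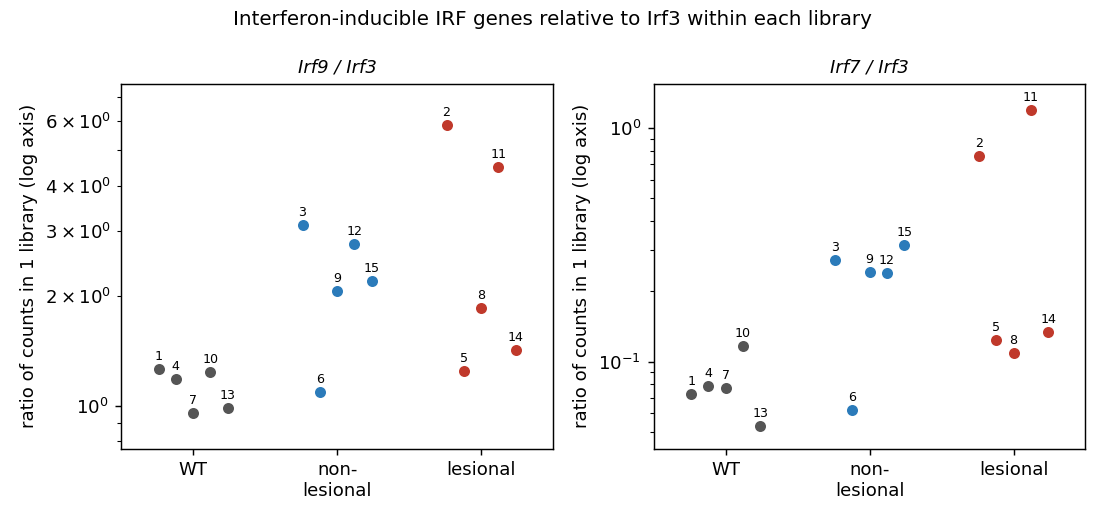
Ratio of *Irf9* to *Irf3* counts (left) and of *Irf7* to *Irf3* counts (right) within each of the 15 libraries, on log axes, 1 point per library numbered by replicate. Non-lesional library 6 sits among the WT libraries in both panels, and lesional libraries 2 and 11 sit above all other libraries.

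*Irf1* (ENSMUSG00000018899, chr11:53770014-53778374, plus strand), an activator induced by interferon gamma and by nuclear factor κB, did not separate the groups. Its CPM were 27.6, 23.6, 30, 39.6 and 47.7 in WT, 31.2, 25.9, 33.4, 32.5 and 38.9 in non-lesional and 51.7, 18.5, 31.98, 88.7 and 31.1 in lesional libraries. Every non-lesional library lay within the WT range, and lesional skin held both the lowest value, in library 5, and the highest values, in libraries 2 and 11. Its fitted log2 fold change was -0.06 ± 0.18 (standard error, unadjusted p = 0.739 by edgeR) for non-lesional and 0.40 ± 0.36 (standard error, unadjusted p = 0.299 by edgeR) for lesional skin over WT skin. With lesional library 11 left out the latter was -0.01, and without libraries 2 and 11 it was -0.31. *Irf2* (ENSMUSG00000031627, chr8:46739732-46847458, plus strand), its antagonist at many promoters, had 132, 106, 120, 90.2 and 99.5 CPM in WT, 102, 119, 107, 97.8 and 111 CPM in non-lesional and 132, 113, 114, 107 and 148 CPM in lesional libraries. All non-lesional values lay within the WT range, and the highest lesional value was in library 14 rather than in library 11. The log2 fold change of *Irf2* was -0.03 ± 0.12 (standard error, unadjusted p = 0.820 by edgeR) and 0.16 ± 0.15 (standard error, unadjusted p = 0.282 by edgeR). In library 11 there were 0.831 *Irf1* counts per *Irf2* count, against 0.209 to 0.479 in WT libraries and 0.164 to 0.392 in the other lesional libraries. *Irf1* shares 135 bases with *Gm17334* on the opposite strand, which held 6 to 23 counts, and *Irf2* shares no annotated exon.

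The *Irf1* and *Irf2* windows are shown because both carry the GAS letters. The first *Irf1* window (chr11:53769764-53770013, plus strand) held a GAS match from base -90 to base -82. The *Irf2* window (chr8:46739495-46739744, plus strand) held an ISRE-type match from base -241 to base -232 and a GAS match from base -224 to base -216. Matches are in capitals.
Irf1: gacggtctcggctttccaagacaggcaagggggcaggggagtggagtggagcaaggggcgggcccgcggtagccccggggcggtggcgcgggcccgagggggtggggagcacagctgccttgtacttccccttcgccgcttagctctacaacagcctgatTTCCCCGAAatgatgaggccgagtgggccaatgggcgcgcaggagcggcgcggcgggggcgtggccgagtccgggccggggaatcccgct
Irf2: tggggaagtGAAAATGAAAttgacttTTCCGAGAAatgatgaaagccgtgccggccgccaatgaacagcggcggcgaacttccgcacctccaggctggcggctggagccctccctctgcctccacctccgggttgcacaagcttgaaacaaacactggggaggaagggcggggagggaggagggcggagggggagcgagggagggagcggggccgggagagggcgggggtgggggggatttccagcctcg

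*Stat3* (ENSMUSG00000004040, chr11:100885098-100939540, minus strand), the mediator of interleukin-6 family and interleukin-22 signals in the epidermis, was close to WT levels in non-lesional skin. WT libraries had 229, 199, 205, 199 and 234 CPM and non-lesional libraries had 249, 195, 231, 204 and 222 CPM, with coefficients of variation of 7.81% and 9.63%. Lesional libraries had 312, 199, 192, 529 and 167 CPM, so that libraries 2 and 11 lay above every WT library and the other 3 lay below every WT library, library 5 by less than 1 CPM. Fitted log2 fold changes of *Stat3* were 0.05 ± 0.10 (standard error, unadjusted p = 0.644 by edgeR) for non-lesional and 0.39 ± 0.28 (standard error, unadjusted p = 0.178 by edgeR) for lesional skin over WT skin. The latter was 0.03 without library 11 and -0.20 without libraries 2 and 11. The last 72 bases of *Stat3* overlap with *Stat5a* on the opposite strand, which held 34 to 75 counts per library against at least 345 for *Stat3*. The *Stat3* window held neither motif.

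*Irf8* (ENSMUSG00000041515, chr8:120736358-120756694, plus strand), which in skin marks macrophages and dendritic cells more than keratinocytes, had 19.4, 10.5, 15.7, 12.2 and 16.9 CPM in WT, 22.3, 17, 19.4, 20.04 and 13.98 CPM in non-lesional and 30.4, 9.23, 13.2, 26.6 and 16.99 CPM in lesional libraries. Of the OTULIN E-KO libraries, 2 non-lesional and 2 lesional ones lay above every WT library, lesional library 5 lay below every WT library, and the others lay within the WT range. The log2 fold change was 0.30 ± 0.20 (standard error, unadjusted p = 0.149 by edgeR) for non-lesional and 0.36 ± 0.31 (standard error, unadjusted p = 0.257 by edgeR) for lesional skin over WT skin, and the latter was -0.19 without libraries 2 and 11. The summed level of 10 macrophage and monocyte markers ranged from 403 to 848 CPM in WT, 515 to 672 CPM in non-lesional and 511 to 780 CPM in lesional libraries, with each marker detected in each group and library 11 the highest of the lesional libraries. For 8 dendritic and Langerhans cell markers the sum was 362 to 527 CPM in WT and 357 to 491 CPM in non-lesional libraries. Among lesional libraries this sum was 337 to 532 CPM, with library 8 the highest. In whole skin, fewer cells of a type and less RNA per cell cannot be told apart. The first *Irf8* window (chr8:120736108-120736357, plus strand) is shown because it carried 2 GAS matches, the most of any member, from base -171 to base -163 and from base -153 to base -145.
Irf8: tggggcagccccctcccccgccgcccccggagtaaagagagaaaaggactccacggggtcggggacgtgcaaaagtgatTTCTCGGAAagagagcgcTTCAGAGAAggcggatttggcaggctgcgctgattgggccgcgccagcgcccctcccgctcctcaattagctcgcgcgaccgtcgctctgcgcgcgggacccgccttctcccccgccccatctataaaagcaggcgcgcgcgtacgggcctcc

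**Figure D3:**
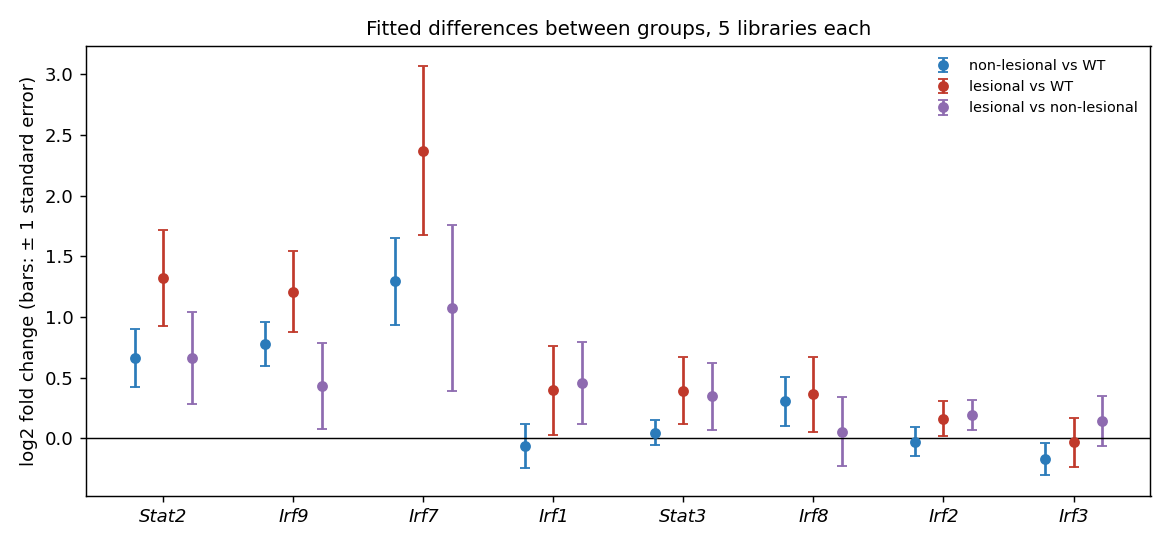
Fitted log2 fold change of each STAT and IRF gene in the 3 comparisons of 5 against 5 libraries, with bars of 1 standard error from edgeR's quasi-likelihood fit. *Irf7*, *Irf9* and *Stat2* lie highest in both comparisons with WT, and the bars widen in the comparisons that include lesional skin.

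Side by side, the median log2 fold change of the 8 members was 0.18 between non-lesional and WT skin, 0.39 between lesional and WT skin and 0.39 between lesional and non-lesional skin, while the median of all genes tested was 0.00 in each. Of the 8 members, 5 were higher and 3 lower in non-lesional than in WT skin, 7 higher and 1 lower in lesional than in WT skin, and 8 higher in lesional than in non-lesional skin, without regard to a test. Between lesional and non-lesional skin, the members other than *Stat2*, *Irf7* and *Irf9* had log2 fold changes of 0.35 (*Stat3*), 0.45 (*Irf1*), 0.19 (*Irf2*), 0.14 (*Irf3*) and 0.06 (*Irf8*), with unadjusted p of 0.144 to 0.847 by edgeR. Without lesional libraries 2 and 11 the first 2 were both at -0.24, *Irf2* at 0.22, *Irf3* at 0.30 and *Irf8* at -0.49. The standard error of *Stat3* was 0.10 between non-lesional and WT skin and 0.28 between lesional and WT skin, and that of *Irf7* was 0.36 and 0.69. Lesional library 11 had the highest value of its group for *Stat2*, *Stat3*, *Irf1*, *Irf7* and *Irf9*, library 2 for *Irf8* and library 14 for *Irf2* and *Irf3*. *S100a8*, a gene of neutrophils and of inflamed keratinocytes, was at 1281 CPM in library 2 and 2408 CPM in library 11, at 116 CPM in non-lesional library 3, at 11.8 CPM in non-lesional library 15 and at most at 4.62 CPM in the other 11. The summed level of the 7 markers of hyperplastic or inflamed epidermis ranged from 735 to 38192 CPM in lesional libraries, 753 to 1893 CPM in non-lesional libraries and 659 to 2207 CPM in WT libraries. Library 11 had the lowest summed levels of its group for the muscle markers (2533 CPM) and for the fibroblast, endothelial and adipocyte markers. The summed level of the 5 hair follicle markers was 1261 CPM in WT library 1, beside a WT median of 34.5 CPM and 24.6 to 49.7 CPM in non-lesional libraries, and *Tchh*, the 1 of them tested, had a log2 fold change of -3.04 between non-lesional and WT skin (unadjusted p = 0.0387 by edgeR). WT library 1 was also the highest WT library for *Irf2*, *Irf8* and *Irf9* and the lowest for *Stat2*. Without it, *Stat2*, *Irf7* and *Irf9* were at 0.52, 1.28 and 0.84 between non-lesional and WT skin and met the unadjusted limit. The part of these keratinocyte, neutrophil, stromal and hair follicle genes in the STAT and IRF levels was not tested.

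**Figure D4:**
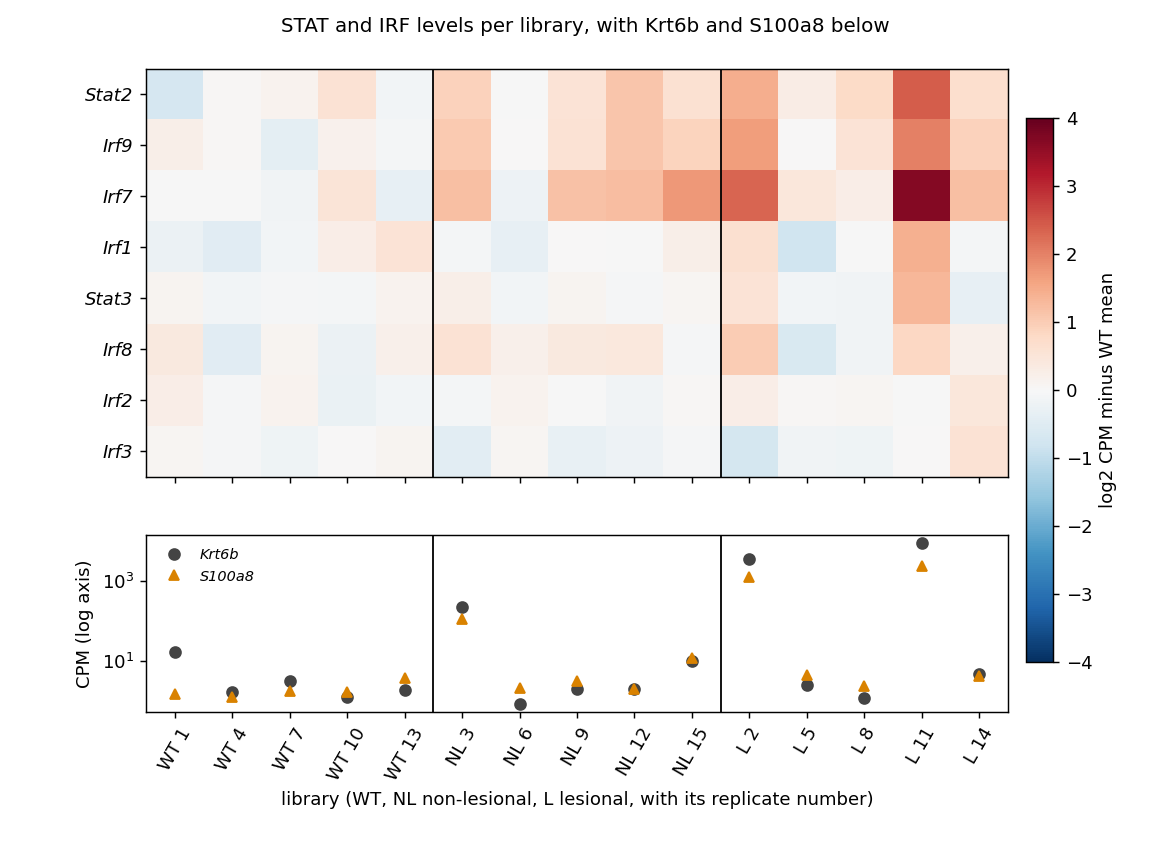
Top, log2 CPM of each STAT and IRF gene in each library minus its mean over the 5 WT libraries. Bottom, CPM of *Krt6b* and *S100a8* in the same libraries on a log axis, high in lesional libraries 2 and 11 and next highest in non-lesional library 3, while *Stat2*, *Irf9* and *Irf7* were also above the WT mean in non-lesional libraries 9, 12 and 15.

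To place the members in their pathways, lists of genes upstream and downstream of them were counted. Genes of the interferon receptors and JAK kinases gave no count past an unadjusted p of 0.05 in any comparison (12 of 12 tested, medians of -0.05, 0.01 and 0.05 in the order above). *Il6ra*, *Jak1* and *Il10rb* had the smallest p between lesional and WT skin, with log2 fold changes of -0.33, 0.12 and 0.24. None of 15 interferon genes passed the filter, *Ifnb1* had 0 counts in all 15 libraries, which allows up to 1.17 to 1.53 CPM per library at 3 counts, and the summed counts of the list reached 4.08 CPM at most. Among the kinases, sensors and adaptors upstream of IRF3 and IRF7, 17 of 19 were tested against WT skin. Of these, 1, *Ifih1*, was higher in non-lesional skin at that limit (log2 fold change 0.77), and 5 were higher in lesional skin, led by *Tmem173*, which encodes the STING adaptor, at 1.42, *Ifih1*, an RNA sensor, at 1.52 and *Ddx58*, which encodes RIG-I, at 1.08. The count of 5 became 1 without lesional libraries 2 and 11. Of the 12 other STAT and IRF family genes listed, 10 were tested, 1 was higher at that limit in each kind of OTULIN E-KO skin than in WT skin and 0 were lower, with medians of -0.05 and -0.04. *Irf4* and *Stat5b* were at -0.46 and -0.28 in lesional skin and did not meet that limit. Without lesional libraries 2 and 11, 0 were higher and 1 was lower in lesional skin. Of the inhibitors of STAT signalling, *Usp18*, which blocks the type I interferon receptor, was higher at that limit in non-lesional (1.503) and lesional skin (2.20), and *Cish* in lesional skin (0.64), of 12 and 13 tested, while *Pias2* was at -0.48. Without these 2 libraries 1 inhibitor was higher. Beside these counts and those of the lists below, 1.85% of all genes tested were higher at that limit in non-lesional than in WT skin. Between lesional and WT skin 3.24% were, or 1.42% without lesional libraries 2 and 11. Between lesional and non-lesional skin 2.89% were.

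Downstream, the listed targets of the complex of STAT2 and IRF9 that passed the filter on low counts had higher levels in both kinds of OTULIN E-KO skin than in WT skin. The target lists were drawn up with earlier results of these data known. The paper had already reported raised expression of type I interferon genes in both kinds of skin from the same libraries. The shared direction of these targets is therefore not an independent result. Of 30 listed targets, 18 passed the filter against WT skin, and all 18 were higher in non-lesional skin, 14 of them at an unadjusted p under 0.05, with a median log2 fold change of 0.75. In lesional skin the same filter left 18, all higher and all 18 at that limit, with a median of 1.49. Some of these targets, such as *Ifit1* (a mean of 3.44 CPM in WT skin) and *Usp18* (3.46 CPM), passed the filter through the group in which they were higher, so the counts are a description, and they do not cover the other 12. *Ddx60*, *Rtp4* and *Usp18* had the smallest p between lesional and WT skin, with log2 fold changes of 2.38, 3.36 and 2.20. Without lesional libraries 2 and 11, 18 targets were tested and all were higher in lesional than in WT skin, 5 of them at that limit, with a median of 0.47. Between lesional and non-lesional skin, 20 targets were tested, all higher with a median of 0.85 but only 2 at that limit, and without those 2 libraries 19 of 20 were lower, 1 of them at that limit, with a median of -0.35. Of the targets of IRF1 and interferon gamma, 25 of 29 were tested, and 5 were higher at that limit in non-lesional and 12 in lesional skin, with medians of 0.35 and 0.84. *Gbp7* and *Gbp2*, guanylate-binding proteins, were at 0.82 and 1.47 in lesional skin and *Cxcl9*, a chemokine for T cells, at 2.18. None of the 25 was higher at that limit when lesional libraries 2 and 11 were left out, and the median was 0.03. Since no gene passed adjustment, these counts stand beside the background shares given above and beside medians of 0.00 over all genes.

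Of 20 STAT3 targets, 15 were tested, and 0 met the unadjusted limit in non-lesional skin and 1, *Vegfa* (log2 fold change 0.66), in lesional skin, where *Hif1a* and *Timp1* were at 0.79 and 0.72. The median of the list was 0.09 in non-lesional and 0.44 in lesional skin, and -0.14 in lesional skin without libraries 2 and 11, when 0 targets were higher and 1 was lower at that limit. Of 12 targets and partners of IRF8 in myeloid cells, 9 were tested, and 0 met the limit in non-lesional skin and 1, *Cst3*, was lower in lesional skin at -0.30, while the lysosomal protease *Ctss* and the oxidase subunit *Cybb* were at 0.78 and 0.52. Between lesional and non-lesional skin *Ctss* and *Cybb* were 2 of the 9 higher at that limit, at 0.87 and 0.71, and 0 of 9 were without libraries 2 and 11. Against WT skin no gene of this list met the limit without those libraries, and the median was -0.02.

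The motifs were also counted in the windows of the target lists. The ISRE-type letters were in 9 of 24 windows (37.5%) of targets of the complex of STAT2 and IRF9 and in 10 of 24 windows (41.7%) of targets of IRF1 and interferon gamma, against 2 of 21 windows (9.52%) of STAT3 targets and 2.98% of all windows. The GAS letters were in 16.7%, 25.0% and 9.52% of the windows of these lists, against 7.02% of all. These shares are descriptions of lists drawn up with earlier results of these data known. Of the members, only *Stat2* and *Irf2* held the ISRE-type letters.

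For members whose log2 CPM had a standard deviation above 0.5 over the 15 libraries, the genes with the most similar profile were found by the root mean square difference between profiles centred on their own mean, over 13460 genes. *Irf9* was closest to *Ifitm3*, which encodes an antiviral membrane protein (0.25), *Ddx58* (0.26) and *H2-D1*, a class I antigen-presenting gene (0.28), against a median of 0.75 over all genes. Genes close to *Stat2* were *Ifitm3* (0.29) and *Avpi1* (0.31), against 0.79. Genes close to *Irf7* were *Ifih1* (0.42) and *Usp18* (0.46), against 1.13. *Irf1* was closest to *Nccrp1* (0.20), *Calm4* (0.20) and *Pdzk1ip1* (0.20), against 0.61. *Stat2* and *Irf9* thus shared *Ifitm3* as nearest profile, whereas none of the 3 genes nearest to *Irf1* was in a target list. These profiles share libraries and their depth, and the differences are given as descriptions.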

How the data were processed

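Skin RNA of 15 libraries (5 WT, 5 OTULIN E-KO non-lesional, 5 OTULIN E-KO lesional) was prepared by the authors with a QuantSeq 3′ kit. Reads were clipped with cutadapt, aligned with Subread to GRCm38 plus ERCC sequences, filtered with SAMtools and assigned to exons with featureCounts. The deposited values are raw counts per gene. A match over several genes was counted for each, no strand option was listed, and the annotation release is not given in the sources used here. PCR copies were not removed, and limits and Poisson values taken from counts make no allowance for them. Standard errors and the other spreads given are between libraries. The 92 spike-in rows were all 0 and were left out. The deposited CPM table was not used, and no column of other samples was present.

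Counts were scaled by TMM and filtered with filterByExpr, and the 2 groups of each comparison were fitted alone with edgeR 4.0.16 (R 4.3.3) by the quasi-likelihood test with robust estimation. Benjamini-Hochberg adjustment ran over all genes tested, and calls were made at an adjusted p under 0.05. The standard error of a log2 fold change was its size over the square root of F. The alternatives were DESeq2 1.42.0, limma 3.58.1 with quality weights, other scalings and filters, 1 fit of all libraries, no robust estimation and leaving out each library. No pair among the 105 pairs of libraries agreed within counting noise (smallest chi-square per degree of freedom 2.35). On counts simulated for the real genes, the lesional against WT step called 46 of 97 genes changed by 1 and 90 of 93 changed by 2 on the log2 scale, and 16 of 12409 unchanged genes.

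Coordinates and exon overlaps came from GENCODE M21 (GRCm38), which matched 55141 of 55487 genes. Upstream sequences came from RefSeq (GRCm38.p6). The members, gene lists and tests were chosen with earlier results of these data known. All members are named, and of each list at most 3 genes, those with the smallest p between lesional and WT skin. Some genes that these rules would name are not reported here.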

Additional observations from a re-analysis of the deposited data

How the results depend on the processing

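Among the alternatives run, no member passed the adjusted threshold between lesional and WT skin or between lesional and non-lesional skin. Between non-lesional and WT skin the number of genes called was 1 by DESeq2 and 18 without the filter on low counts, when 1 member, *Irf9*, was called, and *Irf9* was the 1 member past the unadjusted limit when all 15 libraries were fitted together. Between lesional and WT skin DESeq2 called 14 genes, no member among them. Leaving out 1 library at a time, the genes called between non-lesional and WT skin ranged from 0 to 5 and the members called from 0 to 1, with the upper values without non-lesional replicate 6. The members past the unadjusted limit between lesional and non-lesional skin ranged from 0 to 2, the latter (*Stat2* and *Irf1*) without lesional replicate 5. Limma with quality weights turned *Irf3* to -0.024 and *Irf8* to -0.24 between lesional and non-lesional skin, and ended the unadjusted call of *Irf7* between lesional and WT skin (1.11).

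When 1 library was left out, some signs changed, including those of *Irf1* (lesional against WT skin) and *Stat3* (lesional against non-lesional skin) without lesional replicate 11. Log2 fold changes ranged from -0.0043 to 0.088 (*Stat3*), -0.16 to 0.10 (*Irf1*) and -0.088 to 0.050 (*Irf2*) between non-lesional and WT skin, from -0.012 to 0.59 (*Irf1*) and -0.23 to 0.10 (*Irf3*) between lesional and WT skin, and from -0.016 to 0.48 (*Stat3*), -0.060 to 0.28 (*Irf3*) and -0.16 to 0.23 (*Irf8*) between lesional and non-lesional skin. Without both lesional libraries 2 and 11, the values that turned were -0.20 (*Stat3*), -0.31 (*Irf1*), 0.12 (*Irf3*) and -0.19 (*Irf8*) against WT skin, and -0.09 (*Stat2*), -0.24 (*Stat3*), -0.24 (*Irf1*), -0.53 (*Irf7*), -0.49 (*Irf8*) and -0.24 (*Irf9*) against non-lesional skin. The cause was not tested. *Irf7* has no value where 10 counts were asked of every library. No paired analysis was possible because the groups share no replicate number. With 7 to 13 *Irf7* counts per WT library, counting error limits its WT level more than that of the other members.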
